A study of Tigriopus californicus with 9 samples.

Results

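The proteins that carry other proteins and metabolites across the mitochondrial membranes were followed at the RNA level in Tigriopus californicus, a copepod of rocky tide pools. Contigs were chosen by a rule on protein names, which uses no expression value, though with earlier results of these data known. It matched names for mitochondrial import, an inner or outer mitochondrial membrane, a mitochondrial carrier, a mitochondrial-processing peptidase, solute carrier family 25 or an ADP/ATP translocase. The rule took 26 of 13758 features: 3 of outer membrane import, 7 of inner membrane import, 1 processing peptidase subunit, 6 other inner membrane proteins, 1 ADP/ATP carrier and 8 other carriers. Each feature joins a contig of San Diego animals to one of Santa Cruz animals, and is named here by the San Diego identifier.

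Libraries of polyA RNA came from SDf x SCNm hybrids with San Diego mothers (n = 2), SCNf x SDm hybrids with Santa Cruz mothers (n = 2), San Diego animals (SD, n = 3) and Santa Cruz animals (SCN, n = 2). Hybrids were bred to the third generation by mating among hybrids, so each animal carries its own mixture of both nuclear genomes on the mitochondria of its maternal line. Every library pools 400 to 500 animals, all stages mixed, reared at 20 °C with 12 h of light and held in a 20 °C bath for 2 h before lysis. In whole animals, fewer cells of a type and less RNA per cell cannot be told apart. Both SCNf x SDm libraries carry a second label naming SDf x SCNm, and were grouped by title. No label says that replicates came from separate cultures. The p-values below therefore weigh differences only against the spread among libraries, which may be technical.

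Most mitochondrial proteins are encoded in the nucleus, made in the cytosol and imported. The TOM complex forms the gate of the outer membrane, and the TIM23 complex draws precursors with a presequence into or across the inner membrane, where the processing peptidase removes that presequence. Small Tim proteins instead guide hydrophobic precursors through the space between the membranes, those of most SLC25 carriers among them, to the TIM22 complex that inserts them. These carriers then move ADP, ATP, amino acids and other metabolites across the inner membrane. The roles given below were worked out in yeast and mammals.

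The unit is RPKM, which scales reads to contig length and library size, and so allows levels of different contigs to be set side by side. Recovered depth was 4.37 M and 13.2 M reads in SDf x SCNm, 12.3 M and 11.3 M in SCNf x SDm, 15.1 M, 4.83 M and 0.851 M in SD, and 3.43 M and 1.36 M in SCN. SCN replicate 2 stood apart from all others on the first principal component (42.1% of variance). Its summed yolk markers (9 contigs) were 4024 RPKM, against 35917 in SCN replicate 1, 26388 to 39165 in hybrids and 11858 to 34420 in SD, and its sperm and cilia markers (48 contigs) 666 RPKM, against 1161 in SCN replicate 1, 1216 to 1292 in hybrids and 1152 to 1422 in SD. Muscle markers (49 contigs) summed to 18457 to 24004 RPKM in hybrids, 18893 to 22545 in SD and 29768 to 30727 in SCN, and germline markers (18 contigs) to 1644 to 2353 in hybrids, 3190 to 3810 in SD and 2076 to 2622 in SCN. Nervous system markers (55 contigs) summed to 2236 to 3416 RPKM in hybrids, 1742 to 6169 in SD and 3446 to 4056 in SCN. Sums weigh abundant contigs most, and counts by contig went another way. Hybrids lay above SCN in 29 of 49 muscle and 39 of 55 nervous system contigs, and in 9339 of 13758 features. SD lay above SCN in 25 of 49 muscle contigs, and in 8605 of 13758 features. The part of stage, sex or tissue makeup in the results below was not tested. Parents and hybrids never shared a sequencing run, so being hybrid and being sequenced in another run cannot be told apart.

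The 26 contigs spanned a wide range of levels, with means over 9 libraries of 6.20 to 2182 RPKM and a median of 84.9 RPKM, against a median of 26.2 RPKM over all features. In all, 23 lay above that feature median. An unspecified mitochondrial carrier protein (Contig508) had by far the highest level, followed by the organizing system protein 1-like contig (Contig305), a small protein that shapes the folds of the inner membrane, and the SLC25 member 38-like carrier (Contig277), whose mammalian relative supplies glycine for haem synthesis. At the low end, SLC25 member 45 (Contig26838) rested on as few as 2 reads in SD replicate 3 and 3 in SCN replicate 2, and its values there include a constant that the deposited files add to every feature.

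**Figure D1:**
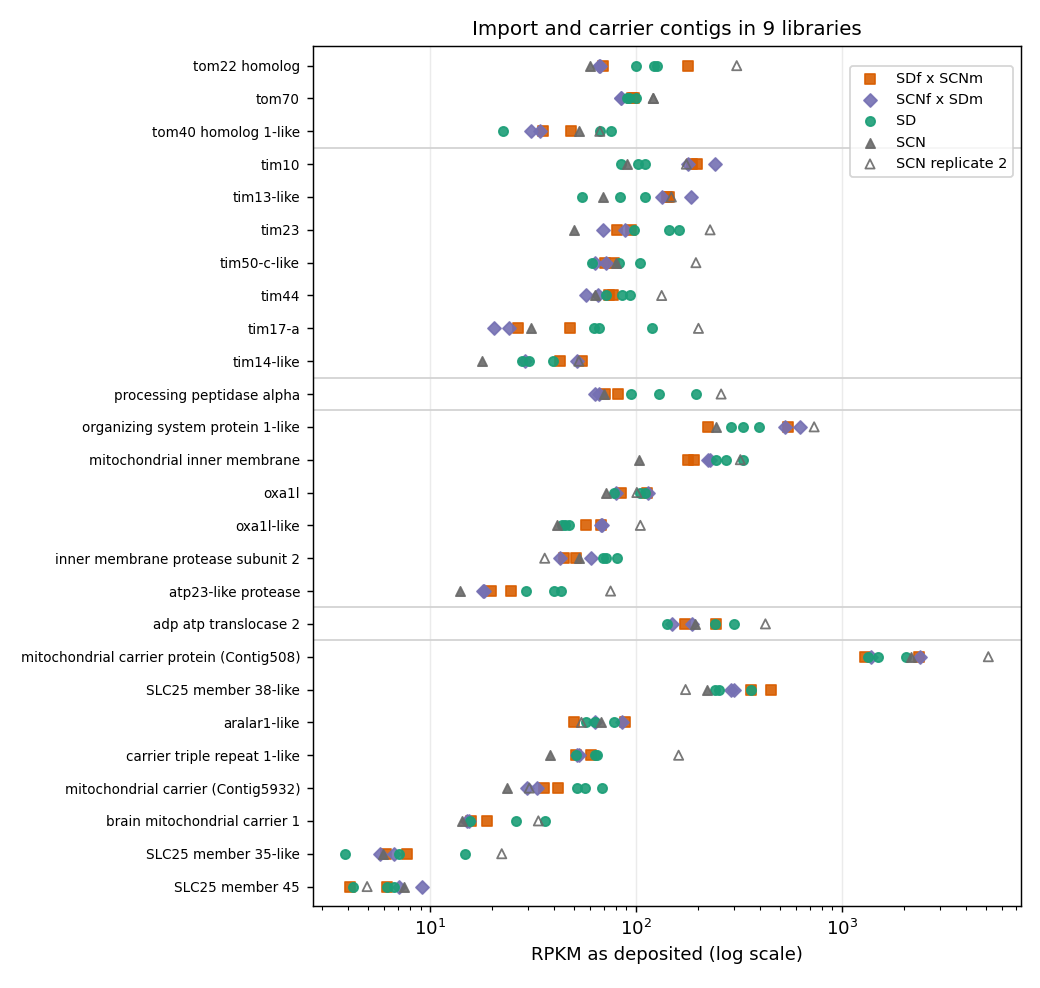
RPKM of each of the 26 contigs (rows, grouped by role and then by mean level) in each of the 9 libraries on a log axis; squares and diamonds are hybrids, circles SD, triangles SCN, and the open triangle SCN replicate 2. The open triangle lies at the right end of 14 rows, and the hybrid symbols lie to the right of every parental symbol for tim10 alone.

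In hybrids the small Tim proteins lay above, and the channel subunit tim17-a below, most parental values, though no member passed the test against the midparent, the average of both parental means on the log2 scale. Tim10 (Contig5576), a chaperone that ferries carrier precursors between the membranes, stood at 188 and 198 RPKM in SDf x SCNm and 180 and 243 RPKM in SCNf x SDm, against 103, 84.7 and 111 RPKM in SD and 90.5 and 176 RPKM in SCN. All 4 hybrid libraries lay above all 5 parental ones, by a narrow margin over SCN replicate 2. Tim10 was the 1 member of 26 with such a separation in either direction, where 7.36% of all features had it, 5.86% with hybrids higher and 1.50% with hybrids lower. The difference from the midparent was 0.84 (SE 0.28) on the log2(RPKM + 1) scale, with a limma adjusted p of 0.169.

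Tim13-like (Contig11969), of the same chaperone family, had 141 and 144 RPKM in SDf x SCNm and 134 and 185 RPKM in SCNf x SDm, against 54.8, 83.8 and 111 RPKM in SD and 69.0 and 149 RPKM in SCN. The hybrids lay above SD without overlap but not above SCN replicate 2. Its log2 difference from the midparent was 0.73 (SE 0.32, limma adjusted p = 0.293). Within a library, tim10 over tim13-like was 1.32 to 1.37 in the 4 hybrid libraries, against 1.00 to 1.87 in SD and 1.18 and 1.31 in SCN.

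Tim17-a (Contig5032), a core subunit of the presequence channel, had 47.9 and 26.6 RPKM in SDf x SCNm and 20.6 and 24.1 RPKM in SCNf x SDm. Parents had 66.2, 62.3 and 120 RPKM in SD and 30.8 and 201 RPKM in SCN. Hybrids lay below SD without overlap, and 3 of the 4 lay below both SCN libraries, which themselves differed 6.53-fold. The log2 difference from the midparent was -1.45 (SE 0.50, limma adjusted p = 0.185), the most negative of the 26, and -0.79 (adjusted p = 0.298) without SCN replicate 2.

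Because library-wide shifts cancel in a ratio within a library, tim10 was also divided by tim17-a. That ratio was 3.93 and 7.42 in SDf x SCNm and 8.75 and 10.1 in SCNf x SDm, against 1.55, 1.36 and 0.927 in SD and 2.94 and 0.874 in SCN. All hybrid ratios exceeded all parental ones, a description of 2 members picked after their values were known. Tim17-a over tim23, its partner in the channel (Contig16881), was 0.508 and 0.330 in SDf x SCNm and 0.298 and 0.272 in SCNf x SDm, against 0.455 to 0.740 in SD and 0.616 and 0.878 in SCN. SDf x SCNm replicate 1, alone in run 4, was the hybrid library nearest to the parents in both ratios.

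**Figure D2:**
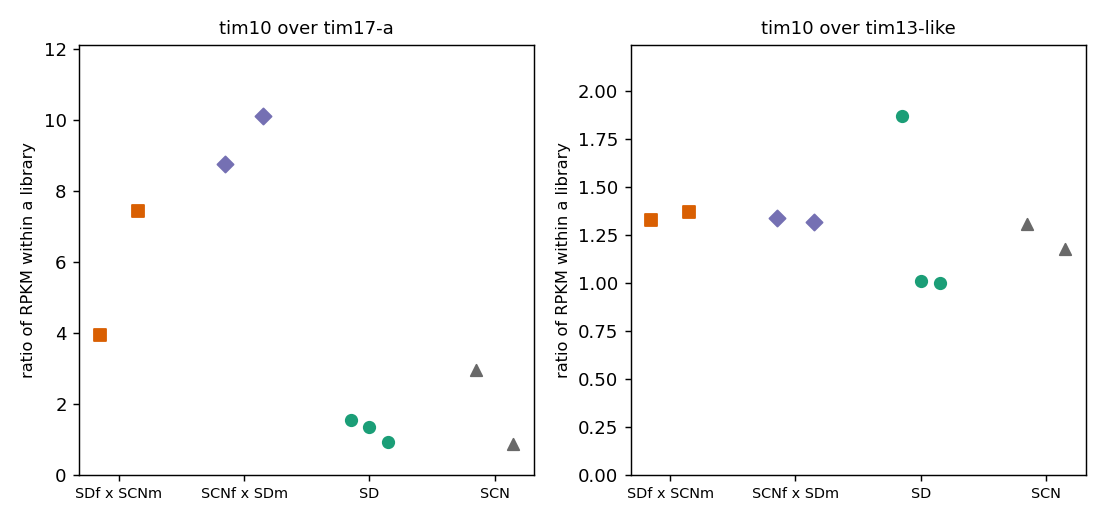
Ratio of RPKM within each library for tim10 over tim17-a (left) and tim10 over tim13-like (right), by group; each symbol is a library and axes start at 0. Hybrid ratios lie at 3.93 to 10.1 on the left, above parental ratios of 0.874 to 2.94, while on the right hybrid ratios of 1.32 to 1.37 fall inside the parental range.

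The other TIM23 components stood closer to the midparent. Tim23 had 94.2, 80.7, 69.1 and 88.5 RPKM in hybrids (SDf x SCNm first), against 146, 98.3 and 162 RPKM in SD and 50.0 and 229 RPKM in SCN. All hybrids lay below SD and between the 2 SCN libraries. Tim50-c-like (Contig9944), the receptor that hands presequences to the channel, ranged from 63.4 to 78.5 RPKM in hybrids, against 61.1 to 105 in SD and 79.6 and 196 in SCN. Log2 differences from the midparent were -0.52 for tim23, -0.50 for tim50-c-like and -0.35 for tim44 (Contig834), which anchors the import motor. Tim14-like (Contig24590), the co-chaperone that stimulates that motor, differed by 0.45, with 28.8 to 54.8 RPKM in hybrids, against 28.0 to 39.4 RPKM in SD and 17.8 and 52.8 RPKM in SCN. Tim44 had 57.4 to 77.4 RPKM in hybrids, against 71.6 to 93.2 RPKM in SD and 63.1 and 133 RPKM in SCN. Without SCN replicate 2 the differences were 0.02 for tim23, turning its sign, -0.18 for tim50-c-like, -0.09 for tim44 and 0.82 for tim14-like. Of these 4 contigs 0 passed over all libraries, with limma adjusted p from 0.459 to 0.563.

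At the outer membrane, the 3 TOM contigs lay below the midparent over all libraries, though tom22 lay close to it without SCN replicate 2. Tom40 (Contig1505cap), the channel, had 48.2, 35.5, 34.2 and 31.0 RPKM in hybrids (SDf x SCNm first), against 67.2, 22.7 and 75.9 RPKM in SD and 52.6 and 66.8 RPKM in SCN. Tom70 (Contig9210), the receptor for carrier precursors, was the steadiest member, at 84.7 to 97.4 RPKM in hybrids, 90.9 to 99.9 RPKM in SD and 121 RPKM in both SCN libraries. Hybrids lay below SCN without overlap for both. Tom22 (Contig952cap), the central receptor, had 178 RPKM in SDf x SCNm replicate 1 and 65.9 to 69.3 RPKM in the other 3 hybrids, against 101 to 126 RPKM in SD and 60.1 and 309 RPKM in SCN. Log2 differences from the midparent were -0.54, -0.24 and -0.54, with limma adjusted p of 0.491, 0.620 and 0.592. Without SCN replicate 2 they were -0.46, -0.24 and 0.04, and that of tom22 was -0.01 without both run 3 libraries.

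The alpha subunit of the processing peptidase (Contig166cap) had 81.8 and 71.0 RPKM in SDf x SCNm and 66.0 and 63.0 RPKM in SCNf x SDm, against 129, 94.8 and 196 RPKM in SD and 70.1 and 259 RPKM in SCN. Hybrids were close to each other and below SD, and SCN replicate 1 fell among them. The log2 difference from the midparent was -0.93 (SE 0.39, limma adjusted p = 0.277), and -0.46 without SCN replicate 2. The beta subunit (Contig693), whose name is spelled so that the rule missed it, had 369 to 422 RPKM in hybrids, against 404 to 492 RPKM in SD and 362 and 1437 RPKM in SCN, a log2 difference of -0.55 (adjusted p = 0.509).

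**Figure D3:**
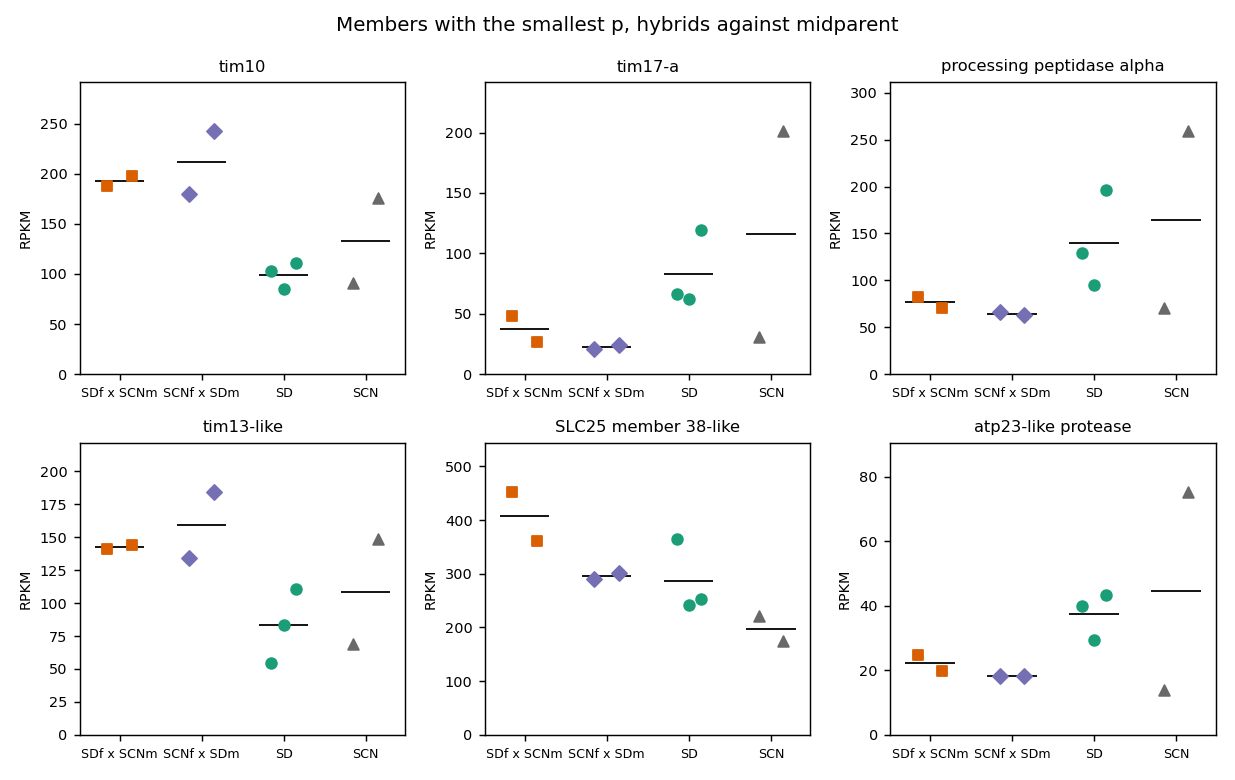
RPKM of the 6 members with the smallest p for hybrids against the midparent, by group; each symbol is a library, bars are group means and axes start at 0. Hybrids lie high for tim10 and tim13-like and low for tim17-a, and in 5 of the 6 panels 1 SCN library is well above the other, SLC25 member 38-like being the exception.

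Among the other inner membrane proteins, the atp23-like protease (Contig95cap), which in yeast matures an ATP synthase subunit, had 24.8, 19.9, 18.2 and 18.4 RPKM in hybrids (SDf x SCNm first). SD had 39.8, 29.3 and 43.4 RPKM and SCN 14.0 and 75.3 RPKM, so the hybrids lay below SD and between the SCN libraries. Its log2 difference from the midparent was -0.76 (SE 0.43, limma adjusted p = 0.407), and -0.17 without SCN replicate 2. The oxa1l-like contig (Contig4468) belongs to the insertases that place proteins into the membrane from the matrix. It had 57.1 to 68.2 RPKM in hybrids, against 43.8 to 47.3 RPKM in SD and 41.4 and 105 RPKM in SCN. Hybrids were above SD without overlap, yet the log2 difference from the midparent was 0.24 (adjusted p = 0.714), and 0.58 without SCN replicate 2. Its paralogue oxa1l (Contig9747) had 80.3 to 114 RPKM in hybrids, against 78.0 to 110 RPKM in SD and 71.9 and 101 RPKM in SCN. The organizing system protein 1-like contig had 223 and 545 RPKM in SDf x SCNm and 624 and 530 RPKM in SCNf x SDm, against 291 to 397 RPKM in SD and 245 and 734 RPKM in SCN. Contig1682, named only mitochondrial inner membrane, had 180 to 230 RPKM in hybrids, below the 244 to 331 RPKM of SD, and 104 and 322 RPKM in SCN.

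Of the carriers, SLC25 member 38-like had 453 and 362 RPKM in SDf x SCNm and 290 and 301 RPKM in SCNf x SDm, against 364, 242 and 254 RPKM in SD and 221 and 174 RPKM in SCN. Hybrids were above SCN without overlap and overlapped SD. The log2 difference was 0.55 (SE 0.26, limma adjusted p = 0.315) from the midparent and 0.81 (SE 0.33, adjusted p = 0.298) from SCN. The ADP/ATP carrier (adp atp translocase 2, Contig3922), which exports ATP from mitochondria in exchange for ADP, had 245 and 173 RPKM in SDf x SCNm and 150 and 188 RPKM in SCNf x SDm. SD had 242, 141 and 299 RPKM and SCN 193 and 426 RPKM, so the groups overlapped, with a log2 difference of -0.42 (SE 0.34, adjusted p = 0.565) from the midparent, and -0.14 without SCN replicate 2. Aralar1-like (Contig7713), of the calcium-regulated aspartate and glutamate carriers, had 50.2 to 88.7 RPKM in hybrids, 57.0 to 78.0 RPKM in SD and 54.3 and 67.7 RPKM in SCN. Brain mitochondrial carrier 1 (Contig4337_2), a relative of the uncoupling proteins, had 15.1 to 18.9 RPKM in hybrids, against 15.6 to 36.0 RPKM in SD and 14.4 and 33.6 RPKM in SCN. Carrier triple repeat 1-like (Contig634) had 51.1 to 60.3 RPKM in hybrids, close to the 50.9 to 65.0 RPKM of SD, and 38.3 and 161 RPKM in SCN.

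The remaining carriers overlapped widely between hybrids and parents. Contig508 had 2383 and 1300 RPKM in SDf x SCNm and 1382 and 2387 RPKM in SCNf x SDm, overlapping the SD and SCN values given below. SLC25 member 35-like (Contig49515) had 5.69 to 7.74 RPKM in hybrids, against 3.86 to 14.8 RPKM in SD and 5.93 and 22.3 RPKM in SCN. It rested on 6 reads in SD replicate 2, 7 in SD replicate 3 and 9 in SCN replicate 1. In SD replicate 2 the added constant alone was 5.51 reads. SLC25 member 45 had 4.07 to 9.09 RPKM in hybrids, against 4.21 to 6.68 RPKM in SD and 4.95 and 7.44 RPKM in SCN.

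Counted over all members, limma called 0 of 26 for hybrids against the midparent, where 0.800% of features were called, and 4 had an unadjusted p below 0.05, where 16.5% of features did. Voom on recovered reads also called 0 members, with 164 of 13632 features called. The lowest of the 9 libraries was a hybrid one in 8 members, where 16.4% of features had that. SCN replicate 2 was the lowest in 2 members and in 44.3% of features, and SCN replicate 1 in 10 members and 10.1% of features. The share left for hybrids therefore depends on the SCN libraries. Of the members 9 lay above the midparent and 17 below, with a median log2 difference of -0.29, against 0.15 for all features. That median was -0.03 without SCN replicate 2, where the feature median was 0.01, and 0.02 without both run 3 libraries. Without SCN replicate 1 it was -0.59, where the feature median was 0.31. Its distance from 0 therefore depended on which SCN libraries were kept. With median-of-ratios scaling the members' median was -0.45, against 0.00 for all features.

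**Figure D4:**
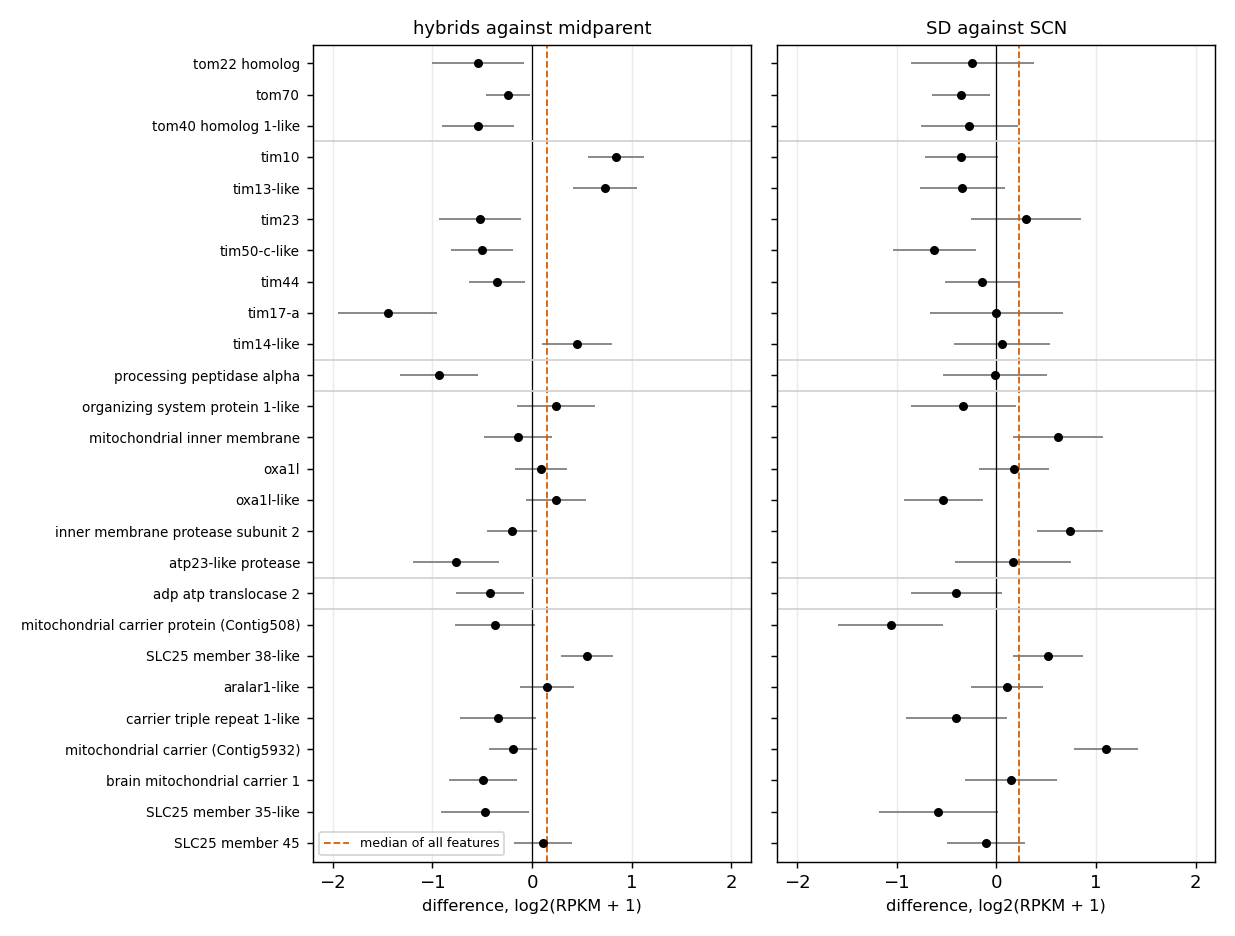
Log2(RPKM + 1) difference of each member (points) with its standard error (bars) for hybrids against the midparent (left) and SD against SCN (right); the dashed line is the median of all features. Tim17-a (-1.45) and tim10 (0.84) mark the ends on the left, and Contig508 (-1.06) and Contig5932 (1.10) on the right.

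Against each parent 0 members were again called over all libraries, but the direction against SCN depended on which SCN library was kept. The members' median log2 difference was -0.18 against SD and -0.39 against SCN, where feature medians were 0.02 and 0.29. Without SCN replicate 2 the members' median against SCN was 0.29, with 18 of 26 above 0, and the feature median was 0.01. Without SCN replicate 1 the members' median was -0.78, with 7 of 26 above 0, and the feature median was 0.59. Against SD, limma called 0 of 26 members, with 1.60% of features called, and 4 had an unadjusted p below 0.05 (19.1% of features). The hybrids did not overlap SD in 10 members, 3 higher and 7 lower, where 29.8% of features did not overlap, 16.5% higher and 13.3% lower. When only hybrids and SD were fitted, so that the spread of the SCN libraries did not enter, 2 members passed: tim10 was higher in hybrids by 1.02 (SE 0.22, limma adjusted p = 0.0280) and tim17-a lower, at -1.45 (SE 0.31, adjusted p = 0.0279). Of all features 9.62% passed in that fit. The same 2 members passed when either SCN library was left out of the fit to all groups, with 9.60% of features called without SCN replicate 1 and 9.61% without SCN replicate 2. With libraries weighted by their agreement, 7 members passed, with 24.2% of features called. Tim10 and tim13-like were higher, and tim17-a, the peptidase alpha subunit, tim23, Contig5932 and the atp23-like protease lower. The weights were 4.23 for SD replicate 1 and 0.639 and 0.744 for SD replicates 2 and 3, so SD replicate 1 dominates the SD side of that fit. Against SCN, limma called 0 of 26 (0.0145% of features), and 2 had an unadjusted p below 0.05 (15.3% of features). Hybrids did not overlap SCN in 5 members, 2 higher and 3 lower, where 25.6% of features did not overlap, 18.4% higher and 7.23% lower. Without SCN replicate 1, which leaves SCN replicate 2 as the lone Santa Cruz library, 8 members were called lower against SCN (28.8% of features called) and 7 lower against the midparent (21.7% of features). These comparisons share the hybrid libraries with each other and the parental libraries with the midparent.

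Between the populations, limma called 0 of 26 members (0.429% of features), and 2 had an unadjusted p below 0.05 (17.5% of features). Voom also called 0 members, with 37 of 13632 features called. A carrier named only as mitochondrial carrier (Contig5932) came nearest. It had 51.8, 56.8 and 68.7 RPKM in SD, against 23.6 and 30.3 RPKM in SCN, and hybrids at 29.5 to 41.7 RPKM lay below SD. Its log2 difference was 1.10 (SE 0.32, limma adjusted p = 0.149), and 1.10 and 1.15 within runs 1 and 3, which each held an SD and an SCN library. Inner membrane protease subunit 2 (Contig920cap), which trims proteins sorted to the space between the membranes, had 71.4, 69.5 and 80.5 RPKM in SD, against 52.8 and 36.1 RPKM in SCN. Hybrids, at 42.9 to 60.6 RPKM, lay below SD and overlapped SCN. The SD minus SCN difference was 0.74 (SE 0.33, limma adjusted p = 0.284), with 0.43 and 1.14 within the runs. Both contigs and SLC25 member 38-like lay higher in SD without overlap, and the abundant Contig508 and tom70 lower, making 5 of 26, where 29.0% of features did not overlap, 19.8% higher and 9.17% lower. Contig508 had 1497, 1342 and 2042 RPKM in SD, against 2158 and 5151 RPKM in SCN, a difference of -1.06 (SE 0.53, adjusted p = 0.327), and -0.43 without SCN replicate 2. Tim50-c-like and Contig1682, next in order of p with SLC25 member 38-like (0.52, adjusted p = 0.446), differed by -0.62 and 0.62 (adjusted p of 0.455 and 0.499).

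The 2 SCN libraries disagreed over these contigs. SCN replicate 2 had the highest value of all 9 libraries in 14 of 26 members, where 14.0% of features peaked there. It exceeded SCN replicate 1 in 22 of 26, where 32.6% of features did, and exceeded it more than 2-fold in 17, where 11.5% of features did. The median ratio of SCN replicate 2 to SCN replicate 1 was 2.36 over the members and 0.66 over all features. The ratio was largest for tim17-a (6.53), the atp23-like protease (5.40), tom22 (5.14) and tim23 (4.58). It lay below 1 for protease subunit 2 (0.683) and for SLC25 member 45 (0.665), SLC25 member 38-like (0.790) and aralar1-like (0.802). Members together took 0.638% of summed RPKM in SCN replicate 2 and 0.294% to 0.378% in each of the other libraries. Whether SCN replicate 2's yolk, cilia or depth values have a part in this was not tested.

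The population difference took another sign in each run for most members. SD exceeded SCN in 21 of 26 members within run 1 (median log2 difference 0.44, against 0.02 for all features) and in 8 of 26 within run 3 (median -0.50, against 0.46). The sign was the same in both runs for 9 members, and over all features for 56.1%. Over all libraries the members' median was -0.12, against 0.23 for all features. It was 0.40 without SCN replicate 2 and -0.81 without SCN replicate 1, so no direction can be given for the group. Without SCN replicate 1, 3 members were called lower in SD (22.4% of features called), namely oxa1l-like, carrier triple repeat 1-like (Contig634) and tim50-c-like.

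**Figure D5:**
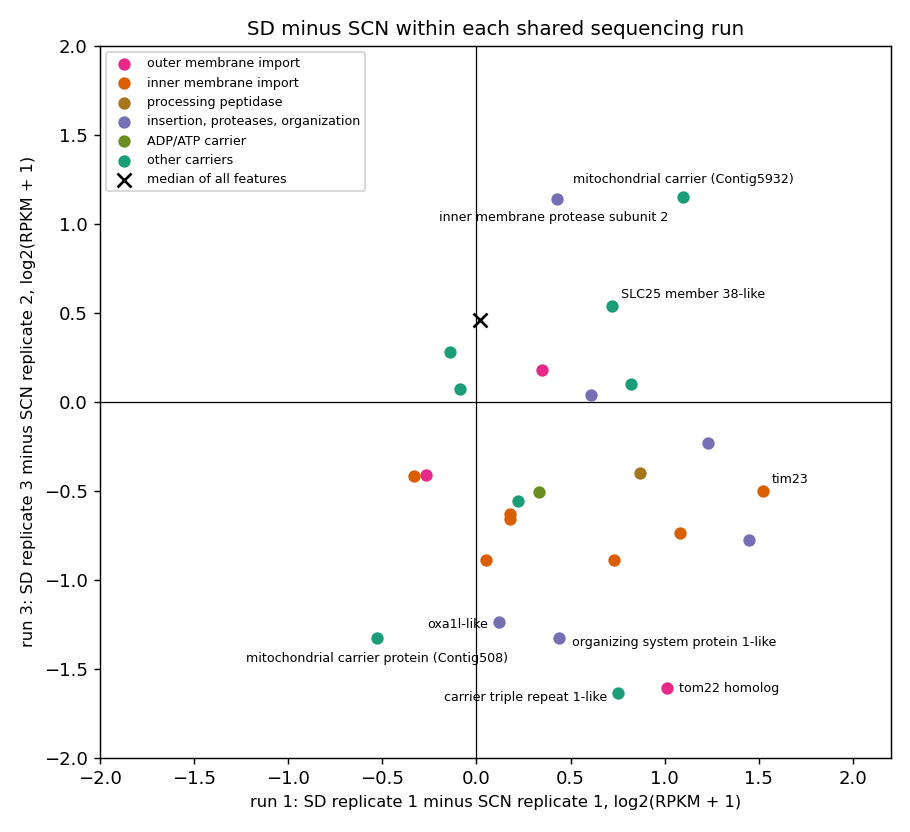
SD minus SCN in log2(RPKM + 1) within run 1 (horizontal axis) and within run 3 (vertical axis) for the 26 members, coloured by role; the cross is the median of all features. Most points lie in the lower right, positive in run 1 and negative in run 3, while Contig5932 lies at 1.10 and 1.15.

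The reciprocal crosses, which differ in the origin of their mitochondria, were compared last. Limma called 0 of 26 members and 0 features (percent called 0), and 0 members had an unadjusted p below 0.05 (0.283% of features). Voom also called 0 members and 0 features. The crosses did not overlap in 13 members, 10 higher and 3 lower in SDf x SCNm, where 28.7% of features did not overlap, 16.3% higher and 12.5% lower. The 6 with the smallest p, each with a limma adjusted p of 1, were SLC25 member 45 (-0.58), the organizing system protein 1-like contig (-0.72), SLC25 member 38-like (0.45), tom22 (0.73), tim17-a (0.66) and Contig5932 (0.30). Within run 5, the only run with both crosses, differences ran from -0.48 (Contig508) to 0.33 (tim44), and tom22 differed by 0.06 and the organizing system protein by -0.08. For these last 2 the larger differences over all hybrids came with SDf x SCNm replicate 1, sequenced alone in run 4.

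Other genes of the route were matched by name to see whether they moved. Of 37 contigs in lists for sorting and assembly, the intermembrane space relay, membrane insertion, quality control proteases, porins and fission, limma called 0 for hybrids against the midparent and for hybrids against SCN, SD against SCN and the crosses, where 0.800%, 0.0145%, 0.429% and 0% of features were called in that order. Against SD, where 1.60% of features were called, it called 2 higher in hybrids: a contig named gst-n-metaxin-like protein (Contig995cap; 2.23, adjusted p = 0.0259) and aquaporin 10 (Contig1729cap; 1.88, adjusted p = 0.0396), a channel of the aquaporin family and no part of the import machinery. Contig995cap had 44.3 and 49.0 RPKM in SDf x SCNm and 53.8 and 76.9 RPKM in SCNf x SDm, against 18.9, 11.4 and 5.75 RPKM in SD and 56.3 and 48.9 RPKM in SCN. The porin pattern took mainly aquaporins and nucleoporins. The mitochondrial porin itself, the voltage-dependent anion channel (Contig4062), had 425 to 519 RPKM in hybrids, 325 to 421 RPKM in SD and 324 and 602 RPKM in SCN. Sam50, which builds barrel proteins into the outer membrane, had 92.5 to 107 RPKM for Contig3160 in hybrids, against 77.0 to 167 RPKM in SD and 91.1 and 375 RPKM in SCN. A second sam50 contig (Contig21219) had 8.31 to 12.9 RPKM in hybrids, against 6.03 to 27.8 RPKM in SD and 17.5 and 38.5 RPKM in SCN. Their log2 differences from the midparent were -0.58 and -0.82, with limma adjusted p of 0.516 and 0.377. The 8 quality control proteases lay below the midparent, as did 37.9% of features, with a median of -0.35, against 0.15 for all features, and 0 were called (0.800% of features). Without SCN replicate 2, 5 of the 8 lay below, as did 49.0% of features, with a median of -0.12, against 0.01 for all features. Of 15 further import and carrier contigs whose names fell outside the rule, chosen after names and values were seen, limma called 0 in any of the 5 comparisons. The phosphate carrier (Contig1615), which supplies phosphate for ATP synthesis, had 348 to 488 RPKM in hybrids, against 463 to 837 RPKM in SD and 437 and 2394 RPKM in SCN.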

How the data were processed

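The authors deposited RPKM values per contig, per the file headers. The sources used here do not name the aligner, the counting method or how reads shared by related contigs were treated. No contig identifier matched the reference gene table (0 matches), so no coordinates or sequences are given. Group means (4, over 9 libraries) were fitted to log2(RPKM + 1) by limma 3.58.1 under R 4.3.3, trend included. The Benjamini-Hochberg adjusted p over all 13758 features was set against 0.05. Differences understate changes of low contigs. Low RPKM values fell on whole-read steps plus a constant of 1.12 to 18.4 reads per library. Reads were recovered for 13632 features (99.1%), with 100% of their values within 0.05 read of a whole number, and for all 26 members. These gave depth and a voom alternative. Recovery and fits were tested on simulated data.

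Named members are those called, the 6 with the smallest p in 3 comparisons, the 2 highest per role, and every peptidase and ADP/ATP carrier. Others are named to complete a role. Members and lists were chosen with earlier results of these data known. Alternatives changed the pseudocount, filter, scaling, weights, trend, libraries, block, added constant and test. The crossed block, voom and constant-free fits were added after seeing the data. A list for the matrix motor and folding proteins matched no contig, as its names were spelled. Heat shock protein 60 (Contig602) and heat shock 70 kDa protein cognate 5-like (Contig1749cap) were present, and were counted among the further import and carrier contigs.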

Additional observations from a re-analysis of the deposited data

Results flagged for a closer look

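Among the 4 hybrid libraries of each of 26 members, Dixon's test at the 95% level set 1 library apart in 2 members, where chance alone gives about 1 in 20. Both times it was SDf x SCNm replicate 1, the library of run 4. Tom22 stood at 178 RPKM there, against 65.9 to 69.3 RPKM in the other 3 hybrid libraries. The oxa1l-like contig stood at 57.1 RPKM, against 67.8 to 68.2 RPKM.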

How the results depend on the processing

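Members called, 0 of 26 in each comparison, changed in few fits. Leaving out each library in turn gave 0 to 7 for hybrids against the midparent, 0 to 2 against SD, 0 to 8 against SCN, and 0 to 3 for SD against SCN. The high ends of 7, 8 and 3, all lower, came without SCN replicate 1, where 21.7%, 28.8% and 22.4% of features were called and the lone SCN library is assumed to vary like the other groups. For hybrids against SD, array weights, highest for SD replicate 1, called 7 members (2 higher and 5 lower, with 24.2% of features). When only those groups were fitted, 2 passed, and leaving out either SCN library in effect repeats that fit. Among the members with the smallest p, directions turned without SCN replicate 2 for tim50-c-like in SD against SCN (range -1.26 to 0.02 with each library left out) and for the processing peptidase alpha subunit in hybrids against SCN (range -1.87 to 0.00, also 0.00 without the run 3 libraries), and without SCN replicate 1 for Contig1682 in SD against SCN (range -0.20 to 1.43). Over all members, the sign turned in at least 1 alternative in 11 of 26 for hybrids against the midparent, 7 against SD, 16 against SCN, 10 between the crosses and 21 for SD against SCN. Against SCN these included tim23 (-1.46 to 0.71), tom22 (-1.83 to 0.51) and the atp23-like protease (-1.85 to 0.50). For hybrids against the midparent, the 6 members with the smallest p kept their sign in 20 of 20 alternatives, tim10 at 0.60 to 1.12 and tim17-a at -2.12 to -0.64.

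The labels do not say whether replicate numbers pair the libraries. Correlations of deviations from group means (r of -0.55 to 0.359) cannot settle this, because deviations in a group of 2 mirror each other. The replicate block called 0 members in every comparison, with 55 features for hybrids against the midparent (110 without it) and 31 against SD (220 without it). With crossed numbers in the hybrids it called 41 features and 0 members. Feature counts for hybrids against the midparent were 193 with a pseudocount of 5, 34 with the constant taken off and 0 without SD replicate 1. Few reads limit SLC25 member 45, and the difference between the 2 SCN libraries limits each comparison that uses them.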
